A study of Homo sapiens with 6 samples.

Results

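The genes described here are 10 reported or predicted targets of the miR-10 microRNA family, namely RORA, BTRC, KLF4, KLF11, MAP3K7, TIAM1, NF1, MIB1, RB1CC1 and BCL6. They were taken by gene symbol in the platform's probe annotation, using for each gene the probe set with the highest mean over all arrays, and each of the 10 had 1 named probe set, among 14884 named genes in all. Their levels were measured on Affymetrix Human Gene 2.0 ST arrays, which read whole transcripts, in 3 established multiple myeloma lines, that is, lines of malignant plasma cells. U266, KMS11 and RPMI8226 were each transfected with the HiPerFect reagent, either with miR-10a mimic (Ambion) at 100 nM or with scrambled control (Negative Control 1, Ambion) at 100 nM, and were collected after 48 h. Every line and treatment had 1 array, which gives 3 mimic arrays and 3 control arrays. No untransfected cells are among the groups, the labels do not say whether the 2 arrays of a line came from separate cultures, and how much mimic entered the cells is not known from these files.

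MicroRNAs guide Argonaute proteins to transcripts by base pairing, mainly through the seed near their 5′ end, and lower the translation and often the amount of those transcripts. miR-10a is encoded in the HOXB cluster and has been studied in blood cell development, in endothelium and in tumours. Its reported targets work in separate processes: NF-kB activation, transcription, control of RAS and RAC, Notch ligand uptake and autophagy. An expression array measures the amount of transcript only.

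The seed is the stretch by which targets of the mimic are predicted, so the mature miR-10a of RefSeq is shown beside relatives grouped in the same family. The mimic's own sequence is not given in the labels. Capitals mark the seed, bases 2 to 8 from the 5′ end.
miR-10a-5p: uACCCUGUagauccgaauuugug
miR-99a-5p: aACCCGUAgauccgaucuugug
miR-99b-5p: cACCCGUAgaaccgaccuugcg
miR-100-5p: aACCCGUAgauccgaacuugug
The lines show that miR-99a, miR-99b and miR-100 share a seed with each other. Compared position by position with no gap, it differs from that of miR-10a at 3 of its bases. After ACCC, miR-10a carries a U that they lack, and much of the remaining sequence is alike once shifted by that base. In GRCh38.p14, miR-10a-5p lies on the minus strand of chromosome 17, at chr17:48579904-48579926, in the MIR10A gene. The sequences are those of RefSeq. miR-10b-5p is a further member of the family.

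The 6 arrays had medians between 3.61 and 3.66 log2 units over all probe sets. Of the named genes, the 7442 with a mean at or above 4.70 log2 units were tested, and all 10 targets were among them. TIAM1 and BCL6 passed that filter only through U266, since their means over the other lines were 4.42 and 4.51. The table has no detection calls, so whether a low value stood above background is unknown. Plasma cell markers matched the labelled cell type in part. IRF4 lay at 10.3 to 10.9 log2 units and XBP1 at 9.34 to 9.65, whereas CD38 was at 3.95 in U266 and SLAMF7 at 3.37 in KMS11, each the mean of a line's 2 arrays. Of the 6 plasma cell markers on the array, the mean level was 7.09 to 8.45 with mimic and 7.04 to 8.42 with control. The B cell list had 3 of 6 markers on the array, at a mean of 3.86 to 4.43 and 3.88 to 4.48. The T cell and myeloid list had 5 of 8, at 3.17 to 3.24 and 3.22 to 3.31, and the stromal list 2 of 6, at 2.21 to 2.25 and 2.05 to 2.29. Of the tested genes of these lists 0 were called as changed by the mimic. BLK, a B cell kinase gene and the one tested B cell marker, averaged 4.84 in U266, 4.57 in KMS11 and 6.46 in RPMI8226 and was lower with mimic in every line, with a mean change of -0.22 ± 0.07 (SD of 3 lines) and limma's adjusted p = 0.889 (unadjusted 0.017). The part of these markers in the results below was not tested.

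None of the 10 targets passed the test of mimic against control. That comparison was made in limma, blocking on the line, and 0% of the 7442 tested genes had an adjusted p under 0.05. At an unadjusted p under 0.05 there were 403 genes, or 5.42%, and 2 of the 10 targets, RORA with a lower value and KLF4 with a higher one, where 2.96% of all tested genes were lower and 2.46% higher at that level. By their mean over the lines, 5 targets were lower with mimic and 5 were higher, against 51.1% of all tested genes lower. The median of the 10 mean changes was -0.02 log2 units, and that of all tested genes was -0.0029. RORA, BTRC, NF1 and RB1CC1 were lower in all 3 lines, as were 13.8% of all tested genes. KLF4, KLF11 and MAP3K7 were higher in all 3, as were 12.7%. The sign was not settled for 3 of these values near 0: NF1 in U266 was 0.013 and KLF11 in RPMI8226 -0.0054 after quantile normalization, and MAP3K7 in KMS11 was -0.0019 with array medians centred. TIAM1, MIB1 and BCL6 changed sign between lines. For all 10 targets the per-gene 95% confidence interval of the mean change excluded a 1.5-fold change in either direction, as it did for 97.6% of all tested genes.

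**Figure D1:**
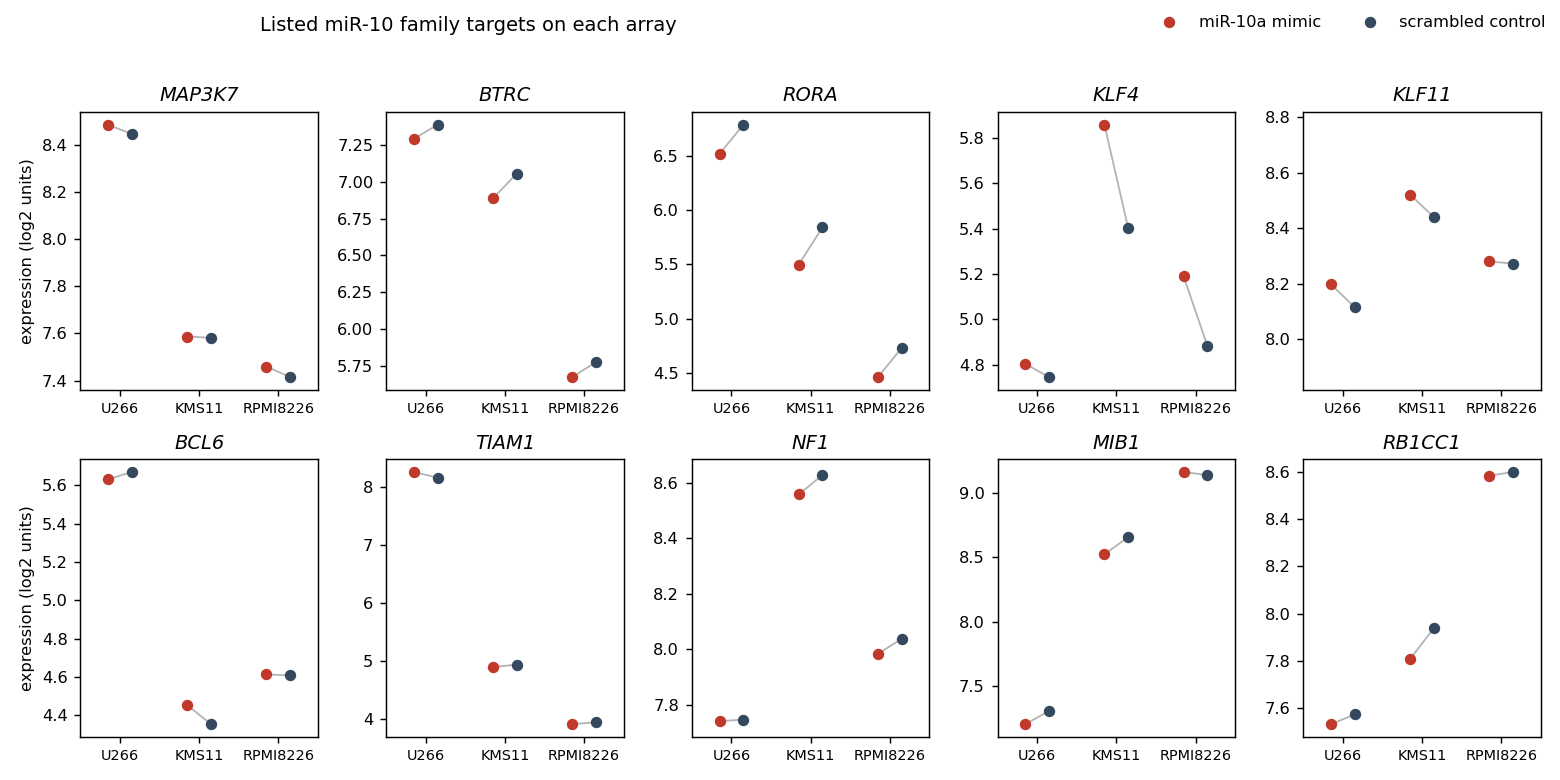
Expression in log2 units of the 10 targets on each array, with the mimic array (red) left of the control array (dark) in every line; the vertical scale differs between panels. The gap within a line is narrower than the gap between the highest and the lowest line in all 10 panels, a description for which the share of all tested genes was not counted.

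MAP3K7 and BTRC act in NF-kB activation, and neither passed the test. MAP3K7 encodes TAK1, a kinase that switches on the IkB kinase complex. MAP3K7 stood at 8.48 log2 units with mimic and 8.45 with control in U266. The 2 values were 7.59 and 7.58 in KMS11 and 7.46 and 7.41 in RPMI8226. Mimic and control thus lay close together in each line. Its mean change was 0.03 ± 0.02 (mimic minus control, log2 units, SD of 3 lines), limma's 95% interval running from -0.13 to 0.19, with limma's adjusted p = 0.968. BTRC encodes beta-TrCP, the ubiquitin ligase subunit that marks phosphorylated IkB for destruction. BTRC stood at 7.29 with mimic and 7.39 with control in U266, with 6.89 and 7.06 in KMS11 and 5.67 and 5.78 in RPMI8226. The mimic array was the lower one in every line, with changes of -0.09 in U266, -0.17 in KMS11 and -0.10 in RPMI8226. The mean change of BTRC was -0.12 ± 0.04, with an interval from -0.28 to 0.04 and limma's adjusted p = 0.917, and 11.1% of all tested genes were as low or lower.

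Other genes around this pair were not called either. Of 10 further NF-kB activation genes on the array 9 were tested, 0 passed in either direction, 5 were lower and 4 higher by sign, and their median change was -0.00092 log2 units. FBXW11, the paralog of BTRC with the same substrates, gave -0.015 in U266, -0.13 in KMS11 and -0.18 in RPMI8226. TAB1 and TAB2, adaptors of TAK1, gave mean changes of 0.13 ± 0.15 and -0.02 ± 0.17 (SD of 3 lines), with limma's adjusted p = 0.917 and 0.989. FBXW11 was thus lower in every line, as BTRC was, though its value in U266 turned to 0.033 after quantile normalization, and TAB1 and TAB2 varied in sign.

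Among the transcription factors, RORA is a nuclear receptor that activates clock genes such as BMAL1. RORA stood at 6.52 log2 units with mimic and 6.79 with control in U266, with 5.50 and 5.84 in KMS11 and 4.46 and 4.73 in RPMI8226. The mimic array was lower in all 3 lines, by similar amounts, although the arrays of the treatments overlapped because the lines themselves lay far apart. RORA averaged 5.49 ± 1.03 with mimic and 5.79 ± 1.03 with control (SD, n = 3), a mean change of -0.29 ± 0.04, or 1.23-fold lower. The 95% confidence interval ran from -0.45 to -0.13, limma's unadjusted p was 0.00435 and its adjusted p = 0.889. Of the 7442 tested genes, 63 had a mean change as low or lower (0.847%). RORA was also 1 of the 12 genes, or 0.161%, at least 1.2-fold lower in every line. That fold was just reached, at -0.27 in U266, -0.34 in KMS11 and -0.27 in RPMI8226, and after quantile normalization the changes in U266 and RPMI8226 were -0.22 and -0.25, short of it.

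Clock genes linked to RORA did not pass. Of 8 tested members of the list of ROR, REV-ERB and clock genes 0 were called, 4 were lower and 4 higher by sign, and the median change was -0.02 log2 units. BMAL1, a gene RORA activates, gave 0.02 in U266, -0.07 in KMS11 and -0.05 in RPMI8226, a mean of -0.03 ± 0.05. CLOCK, the partner of BMAL1, gave 0.0028 ± 0.22 and limma's adjusted p = 0.997. CRY2, a clock repressor gene singled out after its values were seen, was the one list member with an unadjusted p under 0.05 and was higher in every line, with a mean of 0.21 ± 0.06 (unadjusted p = 0.0212, limma's adjusted p = 0.889).

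KLF4, a zinc finger factor of differentiation and pluripotency, had the widest change in the other direction. KLF4 stood at 4.80 log2 units with mimic and 4.75 with control in U266, with 5.86 and 5.40 in KMS11 and 5.19 and 4.88 in RPMI8226. The mimic array was higher in every line, most in KMS11 and least in U266. The mean change was 0.27 ± 0.20, or 1.21-fold, with an interval from 0.04 to 0.50, an unadjusted p of 0.0268 and limma's adjusted p = 0.889. It was 0.38 without U266, 0.18 without KMS11 and 0.26 without RPMI8226. Of all tested genes, 1.06% were as high or higher.

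KLF11, a zinc finger factor induced by TGF-beta, stood at 8.20 log2 units with mimic and 8.11 with control in U266, with 8.52 and 8.44 in KMS11 and 8.28 and 8.27 in RPMI8226. Its mean change was 0.06 ± 0.04 (SD of 3 lines), with limma's adjusted p = 0.926, and its changes were 0.0076 to 0.08 log2 units, the one in RPMI8226 turning to -0.0054 after quantile normalization. In the rest of the KLF family 9 of 15 genes on the array were tested, with 0 called, 8 higher and 1 lower by sign, and a median of 0.07 log2 units. Of the 9, 2 were higher in all 3 lines, as were 12.7% of all tested genes. KLF2 gave 0.07 ± 0.04, KLF10 0.08 ± 0.13 and KLF13 0.10 ± 0.05 (SD of 3 lines), and KLF6, the one below 0, gave -0.04 ± 0.09. The 5 tested TGF-beta genes chosen for KLF11 were lower by the sign of their mean change, with 0 called and a median of -0.03. Only 1 of them was lower in all 3 lines. Of all tested genes 51.1% were lower by mean and 13.8% in all 3 lines.

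BCL6 is the repressor that holds germinal centre B cells back from plasma cell fate. BCL6 stood at 5.63 log2 units with mimic and 5.67 with control in U266, with 4.45 and 4.35 in KMS11 and 4.61 and 4.61 in RPMI8226. Its mean change was 0.02 ± 0.07 (SD of 3 lines), with limma's adjusted p = 0.981, and its sign differed between U266 and the other lines. Of 6 tested genes of the BCL6 circuit 0 were called, 5 were lower and 1 higher by sign, with a median of -0.03. IRF4, a plasma cell factor that represses BCL6, gave -0.01 ± 0.11, and BCOR, a corepressor of BCL6, gave -0.04 ± 0.17.

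**Figure D2:**
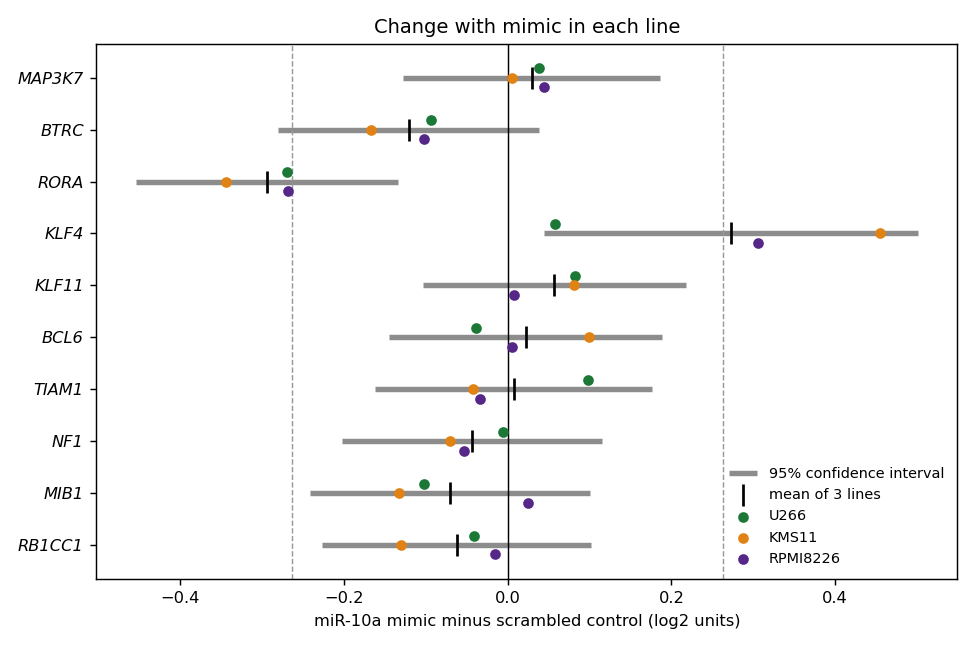
Mimic minus control in log2 units for each line (coloured points), their mean (black tick) and limma's 95% confidence interval (grey bar); dashed lines mark a 1.2-fold change. RORA is the gene with all 3 points left of the lower dashed line, and KLF4 has 2 points right of the upper one.

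TIAM1 and NF1 act on small GTPases in opposite ways, TIAM1 as an exchange factor that activates RAC1 and NF1 as the neurofibromin gene, whose product turns RAS off. TIAM1 stood at 8.26 log2 units with mimic and 8.16 with control in U266, with 4.90 and 4.94 in KMS11 and 3.91 and 3.95 in RPMI8226. The change was 0.10 in U266, -0.04 in KMS11 and -0.03 in RPMI8226, with a mean of 0.0073 ± 0.08 and limma's adjusted p = 0.992. That mean became -0.0012 with array medians centred, so it has no settled sign. NF1 stood at 7.74 with mimic and 7.75 with control in U266, with 8.56 and 8.63 in KMS11 and 7.98 and 8.04 in RPMI8226. NF1 had changes between -0.07 and -0.0058 in the lines, that of U266 turning to 0.013 after quantile normalization, and a mean of -0.04 ± 0.03 (SD of 3 lines), with limma's adjusted p = 0.954. Of 10 tested regulators of RAS and RAC 0 were called, 7 were lower and 3 higher by sign, with a median of -0.0092. TIAM2, the paralog of TIAM1, averaged 3.37 in U266, 3.17 in KMS11 and 3.25 in RPMI8226, below the filter.

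MIB1 encodes a ubiquitin ligase that drives uptake of Notch ligands in the sending cell. MIB1 stood at 7.20 log2 units with mimic and 7.31 with control in U266, with 8.52 and 8.66 in KMS11 and 9.16 and 9.14 in RPMI8226. It was lower with mimic in U266 and KMS11 and slightly higher in RPMI8226, a mean change of -0.07 ± 0.08, with limma's adjusted p = 0.924. The mean was -0.12 without RPMI8226 and -0.04 without KMS11. In the Notch list 13 of 19 genes on the array were tested, with 0 called, 5 lower and 8 higher by sign, and a median of 0.03. The paralog MIB2 gave 0.13 ± 0.09, the ligand gene JAG2 gave -0.0041 ± 0.03, and the receptor genes NOTCH1 and NOTCH2 gave 0.06 ± 0.14 and -0.06 ± 0.02 (SD of 3 lines).

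RB1CC1 encodes FIP200, a scaffold of the ULK1 kinase complex that starts autophagy. RB1CC1 stood at 7.53 log2 units with mimic and 7.57 with control in U266, with 7.81 and 7.94 in KMS11 and 8.58 and 8.60 in RPMI8226. It was lower with mimic in every line, most in KMS11, with a mean of -0.06 ± 0.06, or -0.03 without KMS11, and limma's adjusted p = 0.926. Of 18 tested autophagy genes 0 were called, 8 were lower and 10 higher by sign, with a median of 0.0085. Its partners in the complex, ULK1, ATG13 and ATG101, gave -0.03 ± 0.16, 0.0093 ± 0.19 and 0.04 ± 0.18, and the receptor gene SQSTM1 gave 0.07 ± 0.07.

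Within single lines 1 or 2 of the 10 targets passed a 1.2-fold change. That is a description with no test, since each line had 1 array per treatment. In U266 it was 1 target, RORA, against 13% of all tested genes. In KMS11 there were 2, RORA lower and KLF4 higher, against 12.4%, and in RPMI8226 the same 2 genes in the same directions, against 13.3%. The median change of the 10 was -0.02 in U266, -0.06 in KMS11 and -0.0053 in RPMI8226, where all tested genes had medians of -0.02, -0.0011 and 0.01. Whether the mimic's effect in one line differed from that in the other lines was tested in limma after the data had been seen. That fit left 1 residual degree of freedom, the gap between the changes of the other lines. It can therefore show little about effects particular to a line. Of the 30 tests, 10 targets in 3 lines, 0 passed (lowest adjusted p = 0.871), as did 0% of all tested genes in each line, and 0 of the 30 had an unadjusted p under 0.05. The lowest unadjusted p, 0.105, was that of KLF4, whose change in U266 minus that in the other lines was -0.32 log2 units, with an interval from -0.73 to 0.08.

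**Figure D3:**
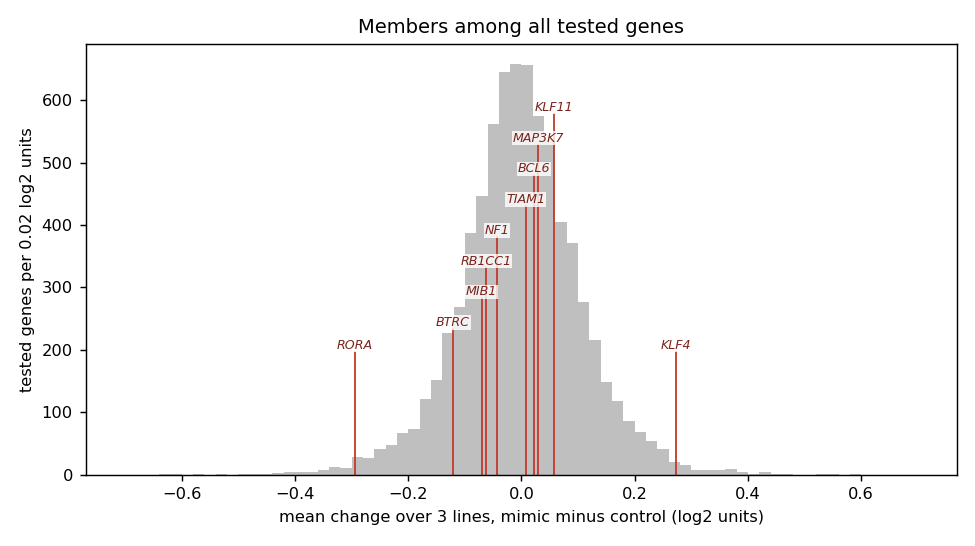
Number of tested genes per bin of 0.02 log2 units of mean change (mimic minus control, mean of 3 lines), with the 10 targets marked by red lines of arbitrary height. RORA at -0.29 and KLF4 at 0.27 lie in the tails, and the other targets between -0.12 and 0.06.

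A further list of reported or predicted miR-10 family targets, written from memory, gave no calls. Of 48 genes 27 were on the array and 16 were tested, 10 of them lower and 6 higher by sign, with a median change of -0.02 log2 units. SRSF1, a splicing factor gene, was lower in every line (-0.10 ± 0.02), as was BCL2L11, encoding the pro-apoptotic protein BIM (-0.13 ± 0.16). LTBP1, MBNL2 and MBNL3 were higher in every line, at 0.10 ± 0.08, 0.10 ± 0.03 and 0.06 ± 0.05 (SD of 3 lines). These 5 were chosen for having 1 sign in all lines after their values were seen. In U266 that sign turned for BCL2L11 after quantile normalization (0.019) and for LTBP1 and MBNL3 with array medians centred (-0.007 and -0.02).

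For all 10 targets the gap between the highest and the lowest line was wider than the widest gap between mimic and control. The share of all tested genes for which this held was not counted, so it describes the targets alone. TIAM1 and BCL6 passed the expression filter only through U266, so a gap between lines was built into their selection, and their line differences are given as a description. The other 8 of the 10 all differed between the lines in limma's F test, with treatment as a term and p adjusted over all tested genes (highest adjusted p = 0.0245, for KLF11). Most genes did: 82.4% of all tested genes passed that test. The arrays of no pair of lines overlapped for any of the 10, as for 61.9% of all tested genes. The median gap between the highest and lowest line was 1.14 log2 units for the targets and 0.77 for all tested genes. TIAM1 and BCL6 are included in that median and in the overlap count, so neither comparison is free of their selection. All 3 pairwise differences between lines passed for 5 of those 8 targets, against 32.7% of all tested genes. Each line rests on 2 arrays that differ in treatment. As treatment was a term, these p-values rest on how far mimic minus control varied among the lines. They do not measure a spread between replicate cultures of a line.

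RORA, BTRC and MAP3K7 were highest in U266, where 27.4% of all tested genes were highest and passed the F test. TIAM1 and BCL6 were highest there too, as their selection through U266 required. TIAM1 averaged 8.21 log2 units in U266, 4.92 in KMS11 and 3.93 in RPMI8226. U266 minus KMS11 was 3.29 log2 units and U266 minus RPMI8226 was 4.28, as a description, since TIAM1 passed the filter only through U266. The level in RPMI8226 lies under the filter, where signal over background is unknown. RORA averaged 6.66 in U266, 5.67 in KMS11 and 4.59 in RPMI8226, and BTRC averaged 7.34, 6.97 and 5.72 in that order. For RORA and BTRC each step between lines passed the test, the narrowest being U266 minus KMS11 for BTRC, at 0.37 log2 units (limma's adjusted p = 0.00803). MAP3K7 averaged 8.47 in U266, 7.58 in KMS11 and 7.44 in RPMI8226, and BCL6 averaged 5.65, 4.40 and 4.61. For MAP3K7, U266 was higher than each other line, and KMS11 and RPMI8226 did not pass against each other, with a difference (KMS11 minus RPMI8226) of 0.15 and a 95% confidence interval from -0.05 to 0.34. For BCL6 that difference was -0.21, with a per-gene interval from -0.41 to -0.0029, and it did not pass after adjustment (limma's adjusted p = 0.0699).

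NF1, KLF4 and KLF11 were highest in KMS11, where 28.8% of all tested genes were highest and passed the F test. NF1 averaged 7.74 log2 units in U266, 8.59 in KMS11 and 8.01 in RPMI8226, and each step passed the test. Its step U266 minus RPMI8226, at -0.27, was lost with no filter (limma's adjusted p = 0.0251, against 0.0767 with no filter). KLF4 averaged 4.78 in U266, 5.63 in KMS11 and 5.04 in RPMI8226, and its difference of -0.26 between U266 and RPMI8226 had an interval from -0.54 to 0.02. KLF11 had the narrowest gap of the 10, with 8.16 in U266, 8.48 in KMS11 and 8.28 in RPMI8226. Of its steps, U266 minus KMS11 passed, at -0.32 (limma's adjusted p = 0.0135), and the F test for KLF11 was lost with no filter (adjusted p = 0.0759).

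MIB1 and RB1CC1 were lowest in U266 and highest in RPMI8226, where 26.2% of all tested genes were highest and passed the F test. MIB1 averaged 7.26 log2 units in U266, 8.59 in KMS11 and 9.15 in RPMI8226, so that U266 was 3.72-fold lower than RPMI8226. RB1CC1 averaged 7.55 in U266, 7.87 in KMS11 and 8.59 in RPMI8226, a 2.05-fold gap in the same direction. Each step between lines passed the test for both genes, the narrowest being U266 minus KMS11 for RB1CC1, at -0.32 (limma's adjusted p = 0.0153). Leaving out TIAM1 and BCL6, U266 minus RPMI8226 was called higher for 3 of 8 targets and lower for 3, against 35.1% and 32.4% of all tested genes. U266 minus KMS11 was called higher for 3 and lower for 5, against 29.8% and 34%, and KMS11 minus RPMI8226 higher for 4 and lower for 2, against 35.6% and 29.4%.

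**Figure D4:**
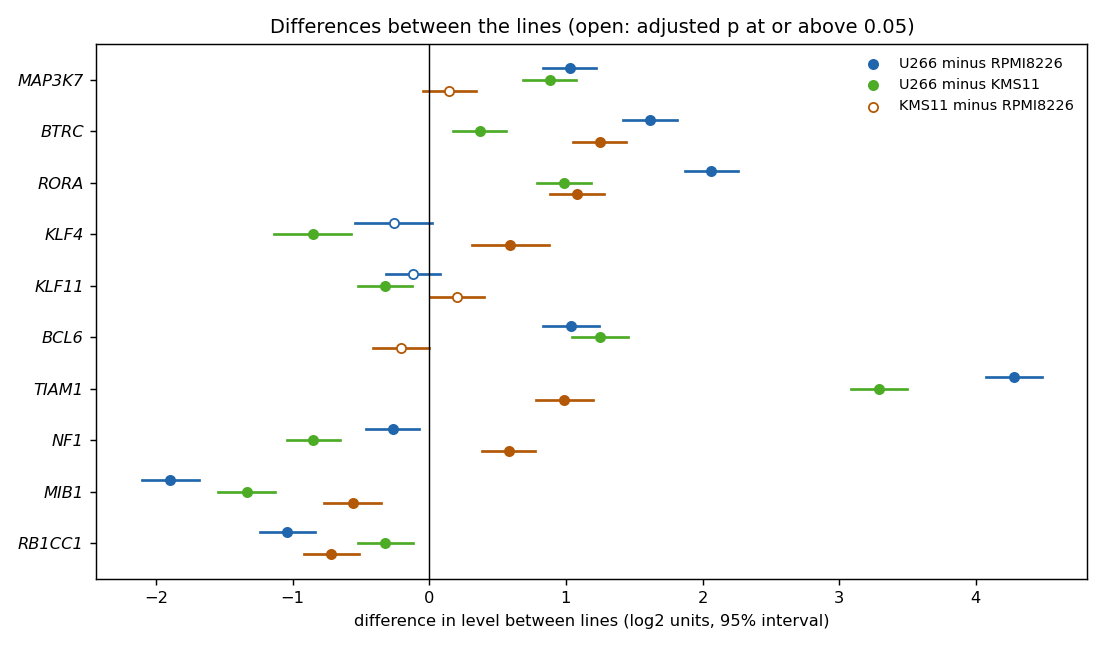
Differences in level between lines in log2 units with limma's 95% confidence intervals for the 10 targets; filled points have an adjusted p under 0.05, and TIAM1 and BCL6 passed the expression filter only through U266. TIAM1 reaches 4.28 for U266 minus RPMI8226, while all 3 differences of KLF11 lie between -0.32 and 0.20.

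Most of the genes around the targets also differed between lines, in their own orders. BMAL1 averaged 6.90 log2 units in U266, 7.41 in KMS11 and 5.31 in RPMI8226, so it was not highest where RORA was. FBXW11 averaged 6.38 in U266, 5.37 in KMS11 and 5.90 in RPMI8226, and like BTRC it was highest in U266. NOTCH1 averaged 4.70, 4.80 and 7.32 and JAG2 4.93, 5.36 and 6.28 in U266, KMS11 and RPMI8226, with the highest level in RPMI8226, as for MIB1. ULK1, at 5.16, 5.69 and 5.90 in the same lines, was likewise highest in RPMI8226, as its partner RB1CC1 was, though KMS11 and RPMI8226 did not pass against each other for ULK1 (limma's adjusted p = 0.132). The other partners of RB1CC1 did not share its order. ATG101 averaged 5.30, 5.77 and 5.46 in the same lines, highest in KMS11. ATG13 averaged 7.36, 7.65 and 7.64 and was not called (limma's F test, adjusted p = 0.086). By the F test 7 of 9 NF-kB activation genes, 8 of 8 clock genes, 8 of 9 KLF genes, 9 of 10 RAS and RAC regulators, 10 of 13 Notch genes, 12 of 18 autophagy genes, 6 of 6 BCL6 circuit genes and 5 of 5 TGF-beta genes were called, beside the 82.4% of all tested genes.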

How the data were processed

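The authors deposited log2 expression values for 53617 probe sets on 6 arrays. Per the submitters' processing notes, Affymetrix Expression Console 1.3.0 was used. How background was corrected and arrays were normalized and summarized, and on which genome build, is not stated in the labels, and such summaries can compress changes of weakly expressed genes. Groups came from the labels. The platform annotation named 16098 probe sets, and 37519 remained unnamed here. For each gene the probe set with the highest mean was used, and genes at or above the median mean were tested. The tests were made in limma 3.58.1 under R 4.3.3 (lmFit, eBayes without trend, two-sided, Benjamini-Hochberg over all tested genes, threshold 0.05), with the line as a block or, between lines, with treatment as a term. Arrays were paired by the line named in the labels; deviations of a line's 2 arrays from their treatment means correlated at 0.967 to 0.970 over genes. With pairing, 2 residual degrees of freedom remained, and fewer in the test of one line's change against that of the others. The fits were also run on simulated data with known changes. How many of those changes were recovered is not reported here, so no result above rests on it. The number of arrays limits the precision. The 10 members and all lists were chosen with earlier results of these data known; all 10 are described, and the partners, named by a fixed list, were not chosen by how they moved. Partners without a named probe set were not analysed here. None of the 6 arrays is of IM-9.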

Additional observations from a re-analysis of the deposited data

How the results depend on the processing

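No gene was called for mimic against control in any of the alternatives, and the count stayed at 0 with no replicate block (2 genes at an unadjusted p under 0.05) and from 0 to 0 when each line was left out. The lowest adjusted p of any of the 10 targets in these alternatives was 0.713, for KLF4. Of 324 alternative values of the targets' mean changes and line differences, 317 kept their direction and side of the threshold, and of 90 values of single lines, which have no test, 87 kept their sign. Many of these could not have changed direction. Each target had 1 named probe set, so the mean of probe sets gave the same estimates again. Another filter, a variance trend, no block and no treatment term changed the p-values and not the estimates. The mean change of TIAM1 was -0.0012 with array medians centred and ranged from -0.038 without U266 to 0.032 without KMS11, and that of BCL6 ranged from -0.017 without KMS11 to 0.052 without U266, against reported values of 0.0073 and 0.02; the cause was not tested. KLF11 in KMS11 minus RPMI8226 was called with array medians centred (limma's adjusted p = 0.0365), with a variance trend (0.0145) and in the upper 25% of genes by mean (0.0239). Testing only that upper 25%, which leaves fewer genes, gave 3474 genes differing between lines by the F test against 6135. RORA, KLF4, TIAM1 and BCL6 were not in that part and so were not tested there. The other 6 targets all passed the F test. Called genes were 2899 for U266 minus RPMI8226 with 5 targets, 2852 for U266 minus KMS11 with 6, and 2933 for KMS11 minus RPMI8226. The other 84 of 91 alternative counts stayed within 1.5 times. RORA in RPMI8226, TIAM1 in KMS11 and RPMI8226, KLF4 and BCL6 lie low on the scale, where signal over background is unknown.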

Other observations

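The genes whose levels followed each target most closely over the 6 arrays were found by Pearson's correlation, as a description in which the points share 3 lines. For RORA these were LIN52, RHOF and VIPAS39 (r = 0.997, 0.997 and 0.996), and for BTRC they were SPAG5, ARHGAP21 and ELF2 (0.999, 0.998 and 0.997). For TIAM1 they were BLOC1S6, FOXN3-AS1 and PRCP, for MAP3K7 SCRN1, MSMO1 and MAP2, and for BCL6 S1PR2, EID1 and FBXO33. For MIB1 they were RERE, RNF19B and MDM4, for RB1CC1 GPRIN3, DESI1 and ETV4, and for NF1 KANSL3, ZNF280C and KMT2C. KLF11 had PAQR4, CHCHD2 and DOCK9. With KLF4, ZNF624 (0.992), CNIH4 and RNF181 correlated best. An r over 0.95 was reached by 35 tested genes for KLF4 and by 177 to 536 for the other targets.

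Of the 4 genes listed for the miR-10 loci, MIR10B, HOXB4 and HOXD4 were on the array and lay below the filter. HOXD4, beside MIR10B, was lower with mimic in every line, at -0.09 in U266, -0.10 in KMS11 and -0.19 in RPMI8226. Among the tested genes, which do not include HOXD4, 13.8% were lower in every line. In limma over all named genes the adjusted p of HOXD4 was 0.967. HOXB4 and MIR10B were mixed in sign: in U266, KMS11 and RPMI8226, HOXB4 gave -0.25, -0.35 and 0.05 and MIR10B gave -0.23, 0.10 and -0.18. HOXB3, a HOXB cluster gene outside that list and also below the filter, was higher in every line. It gave 0.05, 0.05 and 0.24 in the same order.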
